A study of Mus musculus with 8 samples.

Results

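The kidneys of 45-day-old wild-type (WT) mice are described here from 4 RNA-seq libraries, which were all of those that the labels call WT, out of 8 libraries in the series. Each library was made from whole-kidney RNA of C57BL/6 mice by poly(A) selection, and no genetic change or treatment was listed for them. The study used WT kidneys as the baseline for mice that lack Tsc1 in principal cells and Foxi1 in all cells. Levels are given per gene as FPKM (reads scaled by gene length and by library size), and counted reads are used for shares and depth. FPKM sets genes of different length on a common scale, but their order can depend on the length taken for each gene. Of the 26893 genes listed, 25578 had at least 1 read in a WT library, 19182 had a read in all 4 libraries and 1315 had none. The labels give no sex and do not say whether the 4 libraries came from separate animals, so the SD values below describe the spread between libraries.

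A nephron filters plasma at the glomerulus and then reclaims or secretes solutes along a tube of distinct segments. The proximal tubule takes back most of the filtered phosphate, glucose, amino acids and water, the thick ascending limb reclaims salt without water, and the distal convoluted tubule fine-tunes sodium. In the collecting duct, principal cells regulate water and sodium, and intercalated cells secrete acid or base under control of the transcription factor FOXI1. In whole-kidney RNA, fewer cells of a type and less RNA per cell cannot be told apart.

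The 4 libraries held 18573459, 19179034, 14791687 and 17867143 counted reads (WT replicates 1 to 4). A gene with 3 reads would have reached between 0.156 and 0.203 CPM (reads scaled to the library total). WT replicate 2 stood apart from the other 3 libraries. The median absolute deviation of the log2 ratio, scaled to estimate an SD, was taken for each pair of libraries. It was between 0.286 and 0.343 in pairs that included replicate 2 and between 0.176 and 0.214 in the other pairs. Of 11161 nuclear protein-coding genes with at least 1 FPKM on average, replicate 2 was the library farthest from the median for 45.8%, replicate 1 for 24.7%, replicate 3 for 15.8% and replicate 4 for 13.6%. The distance of replicate 2 followed gene length. Relative to the mean of the other 3 libraries, its median log2 ratio was 0.23 for the shortest of 5 equal bins of genes (up to 2388 bases) and -0.18 for the longest bin (from 7315 bases). The same contrast ran the other way in replicates 1, 3 and 4, whose comparison means include replicate 2. Within each of 5 equal bins of GC content, the shortest genes of replicate 2 exceeded the longest by between 0.28 and 0.45 on the log2 scale. The part of RNA quality, library preparation or biology in this was not tested.

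**Figure D1:**
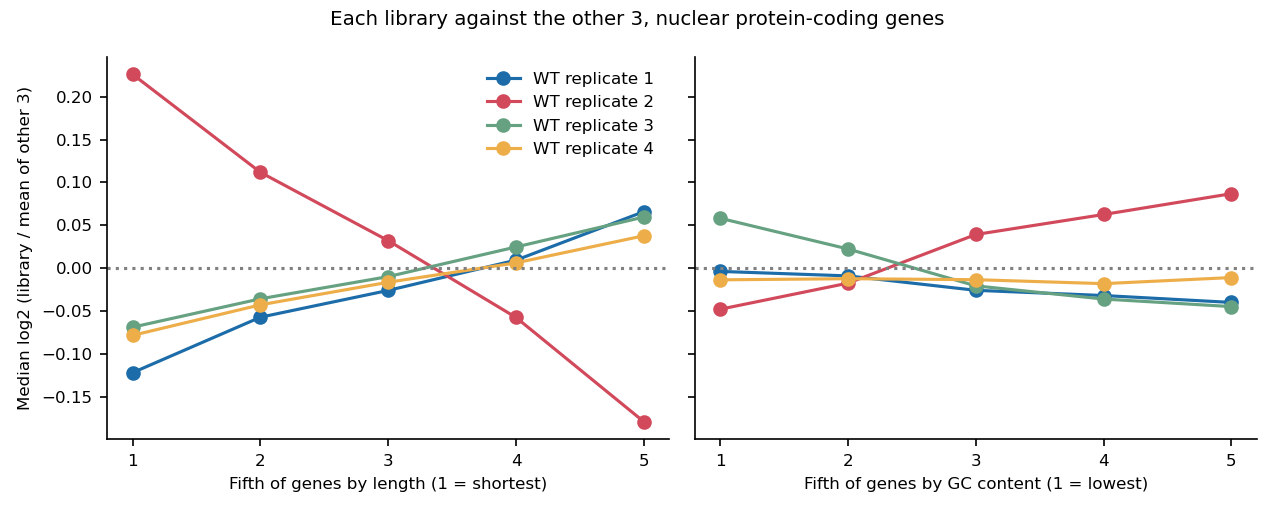
Median log2 ratio of each WT library to the mean of the other 3 (vertical axis) for 11161 nuclear protein-coding genes in 5 equal bins by gene length (left) and, where known, by GC content (right). Replicate 2 was highest for the shortest genes and lowest for the longest, and its slope with GC content was smaller.

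No pair of libraries agreed within sampling noise. The closest pair, replicates 3 and 4, had a mean chi-square of 6.21 per gene over 15557 genes, above counting error alone, so none was treated as the same library deposited again. Separate libraries of 1 animal could also differ by this much. Over the genes with at least 1 FPKM, the median coefficient of variation (CV, SD over mean of scaled CPM) was 10.5%. It was 7.39% without replicate 2.

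The most abundant transcript per length was Kap, the kidney androgen-regulated protein of the proximal tubule. Kap stood at 25179, 30227, 28102 and 25780 FPKM in WT replicates 1 to 4, with a mean of 27322 ± 2311 FPKM (SD, n = 4). Every library placed it above all other genes, and the next entry, mt-Co1 (subunit of mitochondrial complex IV), averaged 16734 ± 1252 FPKM. The range of Kap did not overlap that of mt-Co1, which ran from 15468 to 18464 FPKM. The third was mt-Cytb with 12214 ± 1670 FPKM. Gpx3, the secreted glutathione peroxidase that the proximal tubule makes for plasma, followed with 11608, 12071, 10711 and 10973 FPKM and a mean of 11341 ± 615 FPKM. The ranges of mt-Cytb and Gpx3 overlapped, so their order was not fixed by these libraries.

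Counted reads gave a different order, because long transcripts collect more reads at the same level. By mean scaled CPM the leading genes were mt-Co1 (25282 CPM), Gpx3 (20106 CPM), Kap (18888 CPM), mt-Cytb (13663 CPM) and mt-Nd1 (9180 CPM). The phosphate transporter Slc34a1 ranked 7 by CPM and 15 by FPKM.

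**Figure D2:**
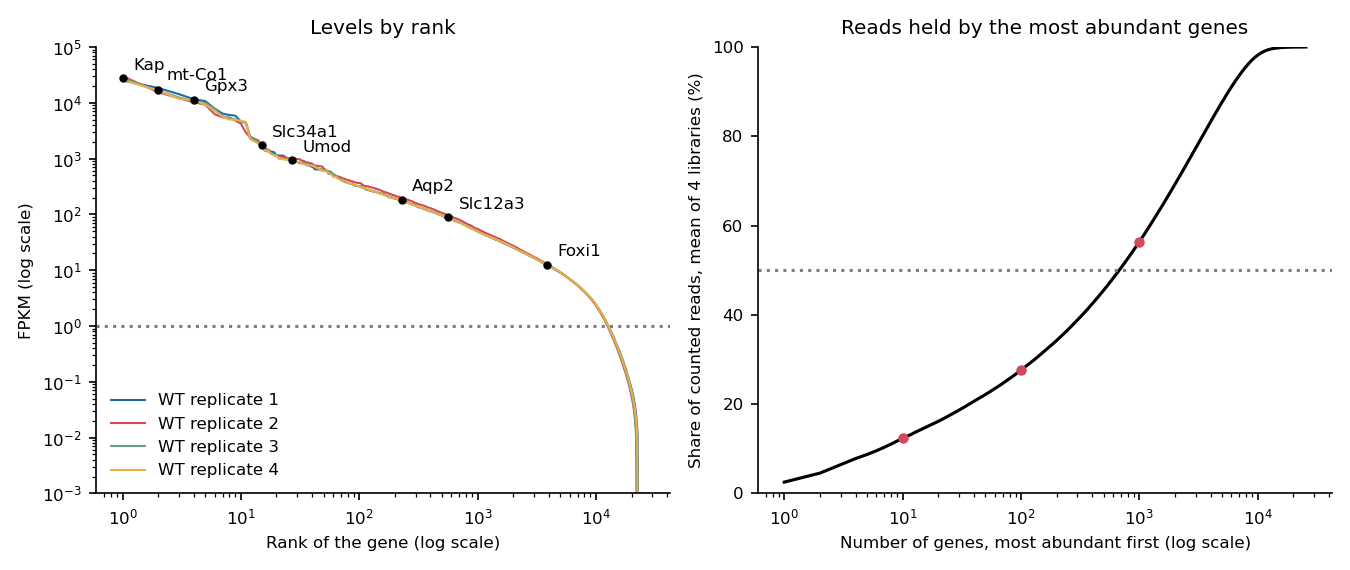
Left, FPKM of all genes ordered by rank in each WT library (both axes logarithmic), with 8 genes marked at their mean level and a dotted line at 1 FPKM. Right, cumulative share of counted reads against the number of genes taken, with points at 10, 100 and 1000 genes and a dotted line at 50%. The 4 curves at left nearly coincide, and the right-hand curve passes 56.4% at 1000 genes.

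Behind Kap and Gpx3, the nuclear genes of highest FPKM were largely enzymes and transporters of the proximal tubule. Fth1 (ferritin heavy chain, iron storage) averaged 4760 ± 453 FPKM, with 5438 FPKM in replicate 2 and 4498 to 4557 FPKM in the other libraries. Acy3 (an aminoacylase) averaged 2338 ± 435 FPKM and Cyp4b1 (a cytochrome P450) 2135 ± 271 FPKM. The ranges of Acy3 and Cyp4b1 overlapped, so their order was not fixed by these libraries.

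Slc34a1 came next with 1725 ± 42.7 FPKM, followed by the translation factor Eef1a1 with 1414 ± 30.2 FPKM and the glutathione peroxidase Gpx1 with 1326 ± 147 FPKM. Klk1 (tissue kallikrein, a protease of the connecting tubule) stood at 1169 ± 46.3 FPKM. Ass1 (arginine synthesis) averaged 1068 ± 181 FPKM, Cyp2e1 1046 ± 72.2 FPKM and Slc27a2 (fatty acid uptake and activation) 1008 ± 99.3 FPKM. Between 989 and 914 FPKM stood Cox8a (respiratory complex IV), Tcn2 (vitamin B12 transport), Selenop (selenium transport), Umod (uromodulin) and Miox (inositol breakdown).

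A small set of genes took a large part of the reads. The 10 genes of highest CPM held 13.2%, 11.4%, 12.4% and 12.2% of the reads of replicates 1 to 4 (mean 12.3% ± 0.720). For 100 genes the mean share was 27.6% ± 0.484 and for 1000 genes 56.4% ± 0.302. Between 656 and 691 genes were needed to reach 50% of the reads of a library. In total 12662 genes averaged at least 1 FPKM, 11180 of them protein-coding. Of all genes, 4681 reached 10 FPKM, 487 reached 100 FPKM and 23 reached 1000 FPKM. The lists of the 100 highest genes of each library shared 87 genes.

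A pair of sequence features bears on how these levels can be read. The first is a short entry. Gm23935, annotated as a miRNA on chromosome 16 (11144125 to 11144181, plus strand), averaged 4985 ± 859 FPKM and ranked 9 by FPKM. Its whole length is 57 bases, and by CPM it ranked 514 with 278 CPM, because division by a short length raises FPKM. All of its 50-base words also occurred in other annotated genes. Its sequence is shown because the annotated name does not show how short and how rich in G and C (73.7%) it is.
Gm23935: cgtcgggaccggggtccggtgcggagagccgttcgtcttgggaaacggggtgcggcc

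The second feature is a set of copies of mitochondrial genes in the nuclear genome. The mitochondrial genome encodes 13 proteins of the respiratory chain, which are made as parts of long shared transcripts. The 7 genes mt-Co1, mt-Cytb, mt-Nd1, mt-Nd2, mt-Nd6, mt-Nd4 and mt-Nd5 averaged between 4681 and 16734 FPKM. Another 5 genes, mt-Atp6, mt-Co2, mt-Co3, mt-Nd4l and mt-Nd3, averaged between 86.1 and 628 FPKM, and no library's value for any of them reached the lowest value of the first 7 (2432 FPKM, mt-Nd5 in replicate 2). For these 5 genes, at least 97% of the 50-base words also occurred in another annotated gene, and for the first 7 the share ran from 0% to 62.2%. The threshold of 97% was chosen after the values were seen.

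The copies lie side by side on chromosome 1, between bases 24611535 and 24616197 (GRCm38), as 7 unprocessed pseudogenes. Over the length of the copy, mt-Co2, mt-Atp6, mt-Co3, mt-Nd4l and mt-Nd4 had no difference from theirs. mt-Nd3 had 1 (T3C, counted from the start of mt-Nd3, mitochondrial base first) and mt-Co1 had 6 over 492 bases. Those 6 lay close together (T1056A, C1057T, A1059G, A1060G, C1062A and A1066T, counted from the start of mt-Co1), and the rest of that copy was the same. The copy of mt-Nd4 covers 876 of 1378 bases and that of mt-Co1 492 of 1545 bases, and those 2 genes averaged 5046 ± 671 FPKM and 16734 ± 1252 FPKM. The 7 copies together held 16277, 10712, 9749 and 12437 reads in replicates 1 to 4, or 73.5% of all reads given to unprocessed pseudogenes. The sequence of mt-Nd4l (mitochondrial genome, 9877 to 10173, plus strand) is shown as the clearest case, with the only bases that extend beyond its chromosome 1 copy Gm10222 (24612407 to 24612700, minus strand) in capitals. The 294 bases in lower case are the same in both.
mt-Nd4l: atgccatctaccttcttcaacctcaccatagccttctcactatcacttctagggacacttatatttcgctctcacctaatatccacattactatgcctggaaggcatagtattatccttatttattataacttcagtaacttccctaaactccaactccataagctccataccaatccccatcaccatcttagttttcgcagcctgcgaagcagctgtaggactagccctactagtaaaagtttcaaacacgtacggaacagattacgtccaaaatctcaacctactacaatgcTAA

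The read counts of this pair were uneven. mt-Nd4l held 1033, 259, 795 and 2000 reads and Gm10222 held 1296, 161, 268 and 487 reads in replicates 1 to 4. Both were lowest in replicate 2, while mt-Nd4l was highest in replicate 4 and Gm10222 in replicate 1. Their CV values of 68.4% and 88.1% were among the widest of the mitochondrial genes and their copies. mt-Atp8 was an exception to the pattern, with 8.45 ± 3.38 FPKM and 0% of its words in another annotated gene. It holds 17 to 45 reads per library, and the stretch of chromosome 1 between the copies of mt-Atp6 and mt-Co2, where a copy of it would lie, has no gene entry and was not examined. The mt-Atp8 entry (7766 to 7969) also overlaps that of mt-Atp6 (7927 to 8607). The part of this overlap in its count was not tested.

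**Figure D3:**
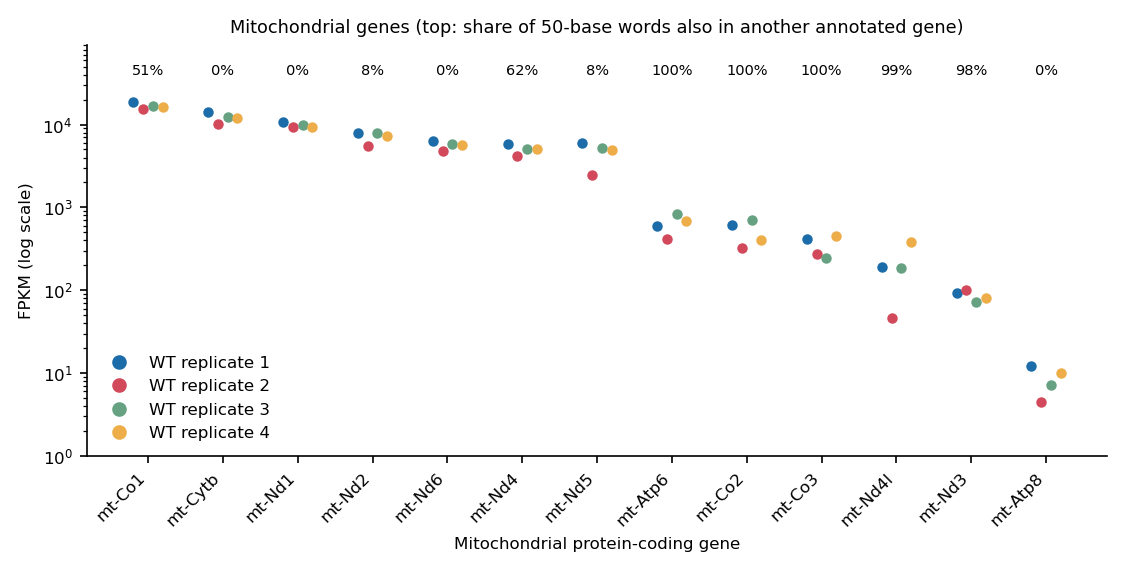
FPKM (log scale) of the 13 mitochondrial protein-coding genes in the 4 WT libraries, ordered by mean, with the share of each gene's 50-base words found in another annotated gene written above it. The 7 genes at left reach down to 2432 FPKM and the 5 genes with at least 97% shared reach up to 821 FPKM.

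All mitochondrial genes together took 8.54%, 6.29%, 7.76% and 7.59% of the counted reads of replicates 1 to 4, with Wilson 95% intervals no wider than 0.0136 percentage points on either side (counting error only). The mean was 7.54% ± 0.937, and 7.96% without replicate 2, which was the lowest. Of the 7 mitochondrial genes of high level, mt-Nd5 lay lowest in that library relative to the others, with 6046, 2432, 5270 and 4976 FPKM. Of the nuclear chromosomes, chromosome 11 held the most reads (9.33% ± 0.184), followed by chromosomes 7 (6.76%) and 2 (6.76%).

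Protein-coding genes held 98.42%, 98.43%, 98.47% and 98.44% of the reads of replicates 1 to 4 (mean 98.4% ± 0.0242). All other biotypes shared 1.56%. Processed pseudogenes, which are copies made from spliced RNA, took 0.399% ± 0.0235 and long intergenic RNAs (lincRNA) 0.385% ± 0.00658. Antisense transcripts took 0.169%, processed transcripts 0.154%, unprocessed pseudogenes 0.0949% and the 2 mitochondrial rRNA genes 0.0792%. Immunoglobulin constant genes took 0.00325%.

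Among lincRNAs, Gm10076 had 118 ± 35.0 FPKM, D630029K05Rik 61.7 ± 7.83 FPKM and Neat1, the scaffold of nuclear paraspeckles, 55.5 ± 4.10 FPKM. By CPM the order changed, with Neat1 at 1127 CPM on a length of 20771 bases and Gm10076 at 44.3 CPM on 384 bases. Of the 50-base words of Gm10076, 69.9% occurred in another annotated gene, against 0% for D630029K05Rik and 1.33% for Neat1. Gm5424 (423 ± 62.9 FPKM), Mpc1-ps (414 ± 53.2 FPKM) and Gm10123 (218 ± 102 FPKM) led the processed pseudogenes, and between 76.5% and 100% of their words occurred in another gene. The antisense entries Gm19950 (48.9 ± 5.14 FPKM) and 0610005C13Rik (37.9 ± 3.27 FPKM) varied little between libraries, whereas Gm15347 had 9.75 FPKM in replicate 2 and 33.5 to 40.9 FPKM in the others. The sources used here do not say whether strand was used in counting, so antisense values are uncertain where a partner gene overlaps them. The snoRNA and snRNA leaders, Gm22748 (22.9 FPKM) and Gm27343 (14.3 FPKM), lie far lower.

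The 6 markers chosen for nephron segments were all read in every library, over a wide range of levels. Slc34a1, the sodium-phosphate cotransporter of the proximal tubule, had 1747, 1716, 1669 and 1767 FPKM (chromosome 13, 55398187 to 55415592). Umod, the protein most abundant in normal urine and made in the thick ascending limb, had 869, 912, 990 and 963 FPKM (chromosome 7, 119462711 to 119479282). The lowest library of Slc34a1 lay above the highest of Umod, with a ratio of means of 1.85.

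Aqp2, the vasopressin-regulated water channel of principal cells, had 171, 222, 159 and 181 FPKM (chromosome 15, 99579055 to 99584547). Slc12a1, the furosemide-sensitive cotransporter of the thick ascending limb, had 193, 155, 189 and 169 FPKM (chromosome 2, 125152505 to 125230002). In FPKM these neighbours did not differ beyond their spread, since Aqp2 was higher in 2 of 4 libraries and their ratio of means was 1.04. Both lay clear of Umod above them (5.09-fold for Umod over Aqp2). By CPM, Slc12a1 (996 CPM) lay above Aqp2 (254 CPM), on lengths of 5763 and 1419 bases.

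Slc12a3, the thiazide-sensitive cotransporter of the distal convoluted tubule, had 100.4, 67.4, 93.4 and 96.1 FPKM (chromosome 8, 94329201 to 94366214). Its lowest value was in replicate 2, and in FPKM no library reached the range of Slc12a1. By CPM the levels were close, at 971 CPM for Slc12a3 and 996 CPM for Slc12a1, on lengths of 11119 and 5763 bases. Foxi1, the master regulator of intercalated cells, had 11.2, 11.9, 12.8 and 14.2 FPKM (chromosome 11, 34204338 to 34208089), so that Slc12a3 was 7.13-fold higher. In rank the markers stood at 15, 27, 228, 236, 565 and 3883 of all genes by mean FPKM. By mean CPM their ranks, in the same order, were 7, 25, 583, 86, 92 and 6101.

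**Figure D4:**
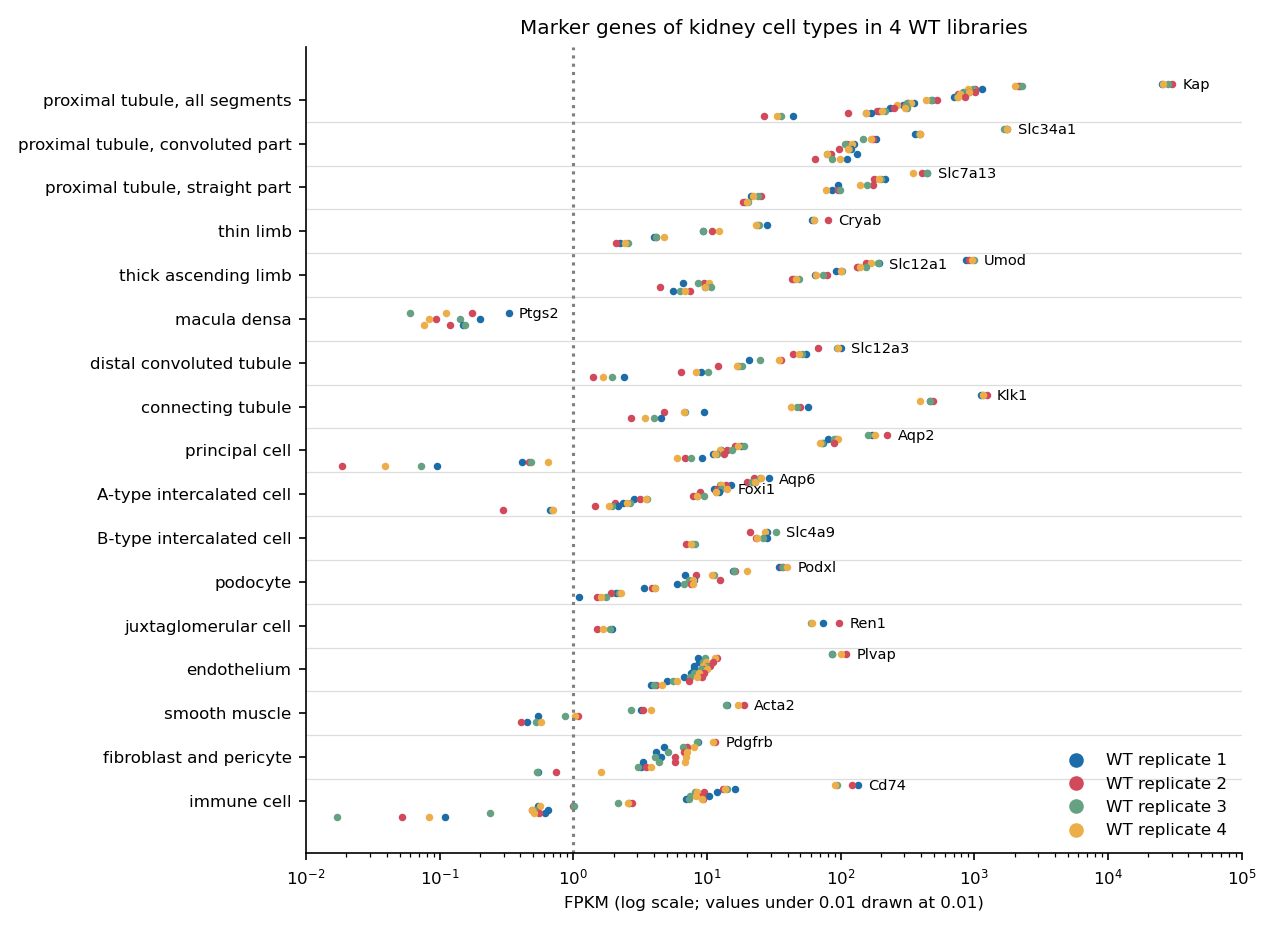
FPKM (log scale) of the members of 17 marker lists for kidney cell types, 1 point per WT library, with the top member of each list and the 6 segment markers named. Kap of the proximal tubule lies furthest right and the 3 macula densa genes lie under 1 FPKM (dotted line).

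All 13 members of the list for the whole proximal tubule averaged at least 34.9 FPKM, and their sum made up 9.001% ± 0.476 of all FPKM. Behind Kap and Slc27a2, members included Miox (914 ± 78.0 FPKM), Acsm2 (786 ± 28.6 FPKM, a mitochondrial acyl-CoA synthetase), Fbp1 (764 ± 61.9 FPKM, gluconeogenesis) and Ggt1 (479 ± 37.4 FPKM, glutathione breakdown). Aqp1, the water channel of the leaky segments, had 329 ± 17.9 FPKM and Hnf4a, a transcription factor of proximal tubule identity, 199 ± 11.8 FPKM. The endocytic receptors were lower, with Lrp2 (megalin) at 148 ± 23.9 FPKM and Cubn (cubilin) at 34.9 ± 7.10 FPKM. Both of these long genes (16701 and 14935 bases) were lowest in replicate 2.

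Among genes of the convoluted part, Slc34a1 was followed by Slc22a6 (381 ± 15.3 FPKM) and Slc22a8 (117 ± 8.55 FPKM), which take up organic anions, and by Slc5a2 (168 ± 14.9 FPKM), the glucose transporter SGLT2. Slc4a4, the basolateral bicarbonate exit, had 112 ± 10.1 FPKM. Slc6a19, an apical carrier of neutral amino acids, had 132 FPKM in replicate 1 and 78.7 to 85.3 FPKM in the other libraries. In the straight part, Slc7a13 led with 410 ± 44.5 FPKM, followed by Slc3a1 (196 ± 15.5 FPKM, cystine uptake), Slc22a7 (142 ± 34.1 FPKM) and Cyp7b1 (89.3 ± 9.15 FPKM). Slc5a1 (SGLT1) had 19.5 ± 0.824 FPKM, and the ranges of Slc5a2 and Slc5a1 did not overlap.

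The whole proximal tubule list exceeded that of the thick ascending limb in summed FPKM by 23.1, 26.1, 22.4 and 21.8 times in replicates 1 to 4 (mean 23.3 ± 1.90). The ratio depended on the most abundant members, since without Kap and Umod, the highest of each list, it was 13.3, and by the median member it was 6.78. No share of cells can be read from it.

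All 9 members of the thick ascending limb list averaged at least 6.54 FPKM. After Umod and Slc12a1 came Egf (140 ± 10.01 FPKM, the urinary growth factor precursor), Ppp1r1a (98.9 ± 4.68 FPKM), the paracellular sodium channel Cldn10 (70.8 ± 7.36 FPKM) and the potassium channel Kcnj1 (45.8 ± 2.34 FPKM). Casr, the calcium-sensing receptor, had 4.47 FPKM in replicate 2 and 9.60 to 10.6 FPKM in the others. Cldn19 (8.72 FPKM) and Cldn16 (6.54 FPKM), which carry calcium and magnesium, were near the lower end. The 3 macula densa genes Ptgs2, Pappa2 and Nos1 were at 0.168, 0.129 and 0.125 FPKM. In the thin limb list, Cryab had 66.8 ± 9.11 FPKM and the urea transporter Slc14a2 10.4 ± 1.42 FPKM.

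In the distal convoluted tubule, Slc12a3 was followed by the kinase Wnk4 (49.9 ± 4.62 FPKM), the calcium buffer Pvalb (28.9 ± 7.29 FPKM), Wnk1 (16.1 ± 2.69 FPKM), Klhl3 (8.47 ± 1.59 FPKM) and the magnesium channel Trpm6 (1.86 ± 0.428 FPKM). The summed list was 204.9, 167.1, 199.7 and 206.4 FPKM, lowest in replicate 2. Its members have a median length of 6915 bases, against 4275 bases for all genes in the length comparison above. Pvalb, the shortest member, was not low in replicate 2. It had 35.5 FPKM there and 34.5 FPKM in replicate 4, and was lower in replicates 1 and 3. The part of gene length in the low sum was not tested.

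Connecting tubule genes included the abundant Klk1 and S100g (454 ± 42.2 FPKM, the calcium carrier calbindin-D9k), followed by Calb1 (49.1 ± 6.15 FPKM), the sodium-calcium exchanger Slc8a1 (6.94 ± 1.94 FPKM) and the calcium channel Trpv5 (3.66 ± 0.779 FPKM). Principal cell genes were Aqp2, then Hsd11b2 (89.3 ± 6.48 FPKM), which protects the mineralocorticoid receptor from cortisol-like steroids, and Aqp3 (76.0 ± 8.46 FPKM). The range of Hsd11b2 overlapped that of Aqp3. The epithelial sodium channel subunits stood at 26.6 ± 3.49 FPKM (Scnn1a), 17.6 ± 1.11 FPKM (Scnn1b) and 13.7 ± 1.41 FPKM (Scnn1g), with no overlap between neighbours. Avpr2, the vasopressin receptor, held only 11 reads over the 4 libraries (0.0564 FPKM), and 72.9% of its words occurred in another annotated gene.

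Of 10 A-type intercalated cell genes, 9 averaged at least 1 FPKM. Aqp6 led with 28.96, 22.5, 24.8 and 25.4 FPKM, and the proton pump subunit Atp6v1b1 had 22.9, 20.1, 21.8 and 23.0 FPKM, so their ranges overlapped. Atp6v1g3 (13.5 ± 1.23 FPKM), Foxi1 and the chloride-bicarbonate exchanger Slc4a1 (11.2 ± 1.55 FPKM) followed, and each overlapped the next in range, as did Slc4a1 and the pump subunit Atp6v0d2 (8.55 ± 0.687 FPKM). Below them were Hmx2 (3.25 ± 0.335 FPKM), the receptor tyrosine kinase Kit (2.38 ± 0.247 FPKM) and Dmrt2 (1.84 ± 0.298 FPKM). Slc26a7, a chloride-bicarbonate exchanger, had 0.586 ± 0.194 FPKM. B-type cells were represented by Slc4a9 (27.3 ± 4.79 FPKM), Slc26a4 (25.3 ± 2.25 FPKM, pendrin) and Insrr (7.61 ± 0.521 FPKM). Slc4a1 is also a red blood cell gene, and the hemoglobins were detected as described below.

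Kit had 2.35, 2.06, 2.63 and 2.51 FPKM and ranked 10018 by FPKM. Tsc1 and Tsc2, the tumor suppressors that restrain mTORC1, had 4.33 ± 0.816 FPKM and 11.4 ± 1.33 FPKM. They are named because the study is about them and outside the rule for named genes, after their values were seen. Tsc2 was the higher in all 4 libraries, and both were lowest in replicate 2.

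Glomerular, vascular and interstitial genes were also read. Podxl, the sialoprotein of podocyte foot processes, had 37.0 ± 2.24 FPKM, Cdkn1c 8.91 ± 2.44 FPKM, Synpo 7.02 ± 0.830 FPKM and Nphs1 (nephrin) 3.86 ± 0.323 FPKM. Ren1, the renin gene of juxtaglomerular cells, had 73.9, 97.6, 60.2 and 60.8 FPKM, highest in replicate 2. Endothelial genes were led by Plvap (95.7 ± 11.2 FPKM), which marks fenestrated vessels, with the other 8 between 4.15 and 10.4 FPKM. Acta2 (16.0 ± 2.41 FPKM) led smooth muscle, while Cnn1 and Tagln averaged under 1 FPKM.

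Fibroblast and pericyte genes reached 9.84 ± 1.61 FPKM (Pdgfrb), and their sum was 29.1, 41.0, 32.1 and 45.2 FPKM, lowest in replicates 1 and 3. In the immune list, Cd74 of the antigen presentation machinery had 110 ± 22.1 FPKM, followed by the macrophage receptor Csf1r (14.3 ± 1.36 FPKM) and by C1qb (9.44 ± 1.72 FPKM). The pan-leukocyte gene Ptprc had 0.534 FPKM and the T cell gene Cd3e 0.0653 FPKM (19 reads in all).

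Apical sodium entry runs through a different protein in each segment. By mean FPKM the order was Slc12a1 (177), Slc12a3 (89.3), the proximal exchanger Slc9a3 (39.5 ± 7.34), Scnn1a, Scnn1b and Scnn1g, and only Slc9a3 and Scnn1a had overlapping ranges. By CPM, Slc12a1 and Slc12a3 were close, as given above. Of 10 aquaporins in the table, 7 averaged at least 1 FPKM. Aqp1, Aqp2, Aqp3 and Aqp6 came first, followed by Aqp7 (10.1 ± 0.966 FPKM), Aqp11 (7.96 ± 0.454 FPKM) and Aqp4 (7.38 ± 1.34 FPKM). Aqp8 averaged 0.984 FPKM, Aqp5 0.252 FPKM and Aqp9 0.0101 FPKM (3 reads).

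Among endocrine genes, Kl (klotho, the FGF23 co-receptor) had 101.1 ± 8.76 FPKM, Ace 84.6 ± 7.49 FPKM and Agt 29.4 ± 3.01 FPKM. Vitamin D metabolism was less even. Cyp24a1, which breaks down the hormone, had 53.2, 14.3, 15.7 and 7.52 FPKM, and Cyp27b1, which makes it, had 3.81, 1.98, 1.88 and 2.37 FPKM. Both were highest in replicate 1. Epo, the erythropoietin gene, held 9 reads in all and none in replicate 1, which at its depth allows up to 0.162 CPM.

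Solute carriers, the largest transporter superfamily, were taken by symbol (Slc and a number). They counted 352 listed protein-coding genes, of which 251 averaged at least 1 FPKM and 27 at least 100 FPKM. The set rests on names, so it can hold genes that are not carriers, and it includes Slc9a3r1 (220 ± 12.5 FPKM). Of all 17194 listed protein-coding genes, 11180 averaged at least 1 FPKM and 462 at least 100 FPKM. The solute carriers took 4.83% ± 0.0581 of the reads. Behind Slc34a1 and Slc27a2 came Slc22a12 (718 ± 79.1 FPKM, the urate transporter), Slc25a5 (558 ± 24.6 FPKM, a mitochondrial ADP/ATP carrier), Slc7a13, Slc22a6, Slc22a18 (363 ± 27.04 FPKM), Slc25a39 (268 ± 27.2 FPKM), Slc47a1 (249 ± 12.7 FPKM, organic cation export) and Slc17a1 (247 ± 14.6 FPKM). The ranges of the last 3 overlapped.

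All 82 nuclear genes of the respiratory chain and ATP synthase averaged at least 1 FPKM, 40 of them at least 100 FPKM, and together they took 2.15% ± 0.202 of the reads. Of 80 cytosolic ribosomal protein genes, 79 averaged at least 1 FPKM, with 1.28% ± 0.142 of the reads. Both families are short (median 1559.5 and 1754.5 bases), and in replicate 2 their median log2 ratio to the other 3 libraries was 0.33 and 0.32. The families below were chosen after the values were seen. Cytochromes P450 took 1.12% of the reads, with 37 of 77 at or above 1 FPKM. Of 83 potassium channel genes 17 reached 1 FPKM, led by Kcnj16 (292 ± 13.9 FPKM) and Kcnj15 (173 ± 18.1 FPKM). Claudins reached 159 ± 6.36 FPKM for Cldn2, the cation pore of the proximal tubule. Hox genes, which keep positional identity in the adult, were read for 23 of 35 members at 1 FPKM or more, with Hoxd8 at 31.9 ± 2.38 FPKM. That share was close to the share of all protein-coding genes (11180 of 17194). None of 53 olfactory receptor genes reached 1 FPKM, the highest being 0.463 FPKM.

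Promoters were examined for the genes of highest level, in windows from 250 bases before to 50 after the start (RefSeq, GRCm38.p6). The letters TATAAA, the core of the TATA box where they lie shortly before the start, were present anywhere in the window on the gene's own strand in 14 of 98 windows of the 100 highest nuclear protein-coding genes (14.3%), against 5.41% of 16606 windows of all such genes. In the 4 lower rank bands of nuclear protein-coding genes the share lay between 3.69% and 7.63%, with no steady order, since the lowest band had 6.57%. In the short stretch before the start where a TATA box lies, TATAAA began in 5 of the 98 windows (5.10%), against 1.52% of all windows, and the other 9 of the 14 windows held it only elsewhere. GTTAAT, one arm of the palindrome bound by the tubular transcription factor HNF1, was read on both strands and occurred in 11 of 98 windows (11.2%), against 5.21% of all. GGGCGG, the core of the GC box, was in 44.9% of the 98 windows and 55.4% of all. A gene may have several windows, and the 98 windows belong to 76 genes. None of the 3 motifs contains another. A match describes letters only and says nothing of binding.

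The stretches that hold these letters are shown for 4 genes of the highest level, with the motif in capitals. Starts are those of RefSeq and can differ from the deposited gene positions. The Slc34a1 stretch lies inside the deposited span of its gene (55398187 to 55415592). The Kap stretch overlaps the deposited span of Kap (133849851 to 133853762). The first 2 are the 100 bases before the start of Kap (chr6:133853668-133853767, minus strand) and Acy3 (chr19:3986470-3986569, plus strand), chosen from those 5 windows (TATAAA begins at -31 and -30).
Kap promoter: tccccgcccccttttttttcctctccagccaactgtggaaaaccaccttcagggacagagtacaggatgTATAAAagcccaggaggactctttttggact
Acy3 promoter: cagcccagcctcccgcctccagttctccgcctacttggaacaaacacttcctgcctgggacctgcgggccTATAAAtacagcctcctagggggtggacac
The others are the 100 bases before the start of Slc34a1 (chr13:55399548-55399647, plus strand), with GTTAAT and, farther from the start, its reverse complement, and the stretch from -250 to -151 of Umod (chr7:119479413-119479512, minus strand), with GTTAAT at -202.
Slc34a1 promoter: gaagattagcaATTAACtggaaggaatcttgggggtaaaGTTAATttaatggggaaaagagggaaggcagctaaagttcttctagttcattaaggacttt
Umod promoter: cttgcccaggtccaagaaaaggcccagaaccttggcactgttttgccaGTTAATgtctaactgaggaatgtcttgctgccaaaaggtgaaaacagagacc

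Spread between libraries depended on the level. The median CV was 13.6% for 5369 genes between 1 and 5 FPKM, 8.77% for 4735 genes between 5 and 20 FPKM, 8.69% for 2071 genes between 20 and 100 FPKM and 9.78% for 464 genes between 100 and 1000 FPKM. Of the 12662 genes with at least 1 FPKM, 5970 had a CV under 10% (47.1%) and 305 a CV over 50% (2.41%). The common biological CV, which is the part of the spread beyond counting error as estimated by edgeR over 14668 genes, was 12.6%. Without replicate 2 it was 10.3%.

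**Figure D5:**
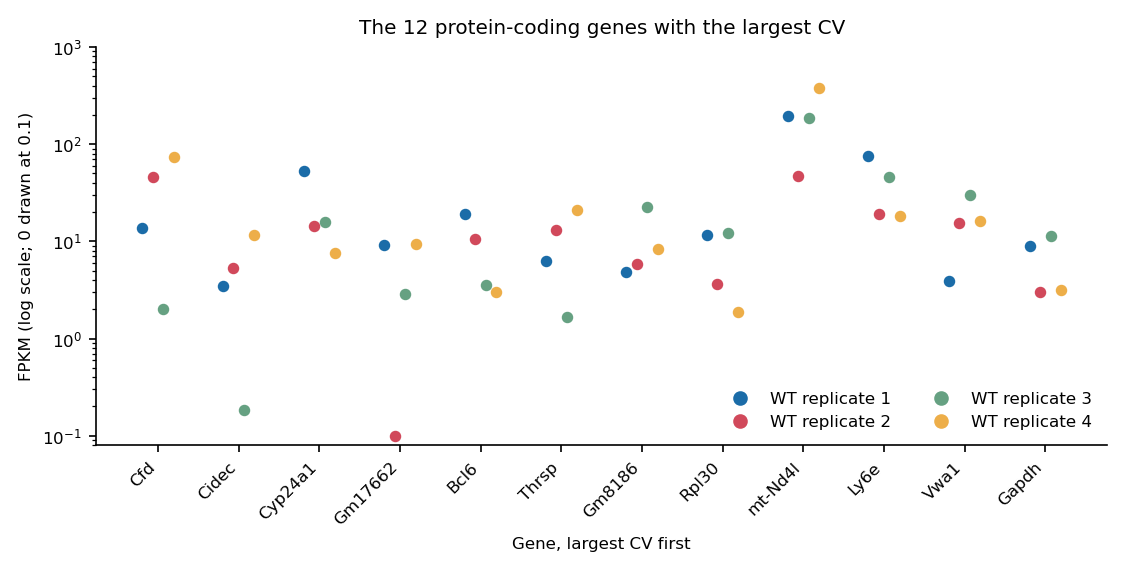
FPKM (log scale) of the 12 protein-coding genes with the largest CV among 6863 with a mean of at least 5 FPKM, 1 point per WT library. Cfd, Cidec and Thrsp share an order, lowest in replicate 3 and highest in replicate 4, and Cyp24a1, Bcl6 and Ly6e were highest in replicate 1.

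The 12 most variable of 6863 protein-coding genes with at least 5 FPKM fell into a few kinds. Cfd (adipsin), which fat cells secrete, had the largest CV (96.1%), with 13.8, 46.3, 2.02 and 74.5 FPKM. Cidec, a protein of fat droplets, had 3.43, 5.34, 0.186 and 11.7 FPKM. Thrsp, a regulator of fatty acid synthesis, had 6.25, 13.03, 1.67 and 21.1 FPKM. All 3 were lowest in replicate 3 and highest in replicate 4, by 36.8-fold, 63.1-fold and 12.6-fold.

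Cfd is also a member of the adipose list, which held 4 genes and summed to 19.6, 57.2, 2.39 and 92.3 FPKM. Most of that sum was Cfd itself, so only the other 3 members add to what Cfd showed. Adipoq had 3.73, 3.69, 0.2001 and 8.24 FPKM, Plin1 had 1.66, 2.96, 0.163 and 4.99 FPKM, and Ucp1, the uncoupling protein of brown fat, had 0.339, 4.26, 0 and 4.53 FPKM. These 3 members averaged above 1 FPKM, and all 3 were lowest in replicate 3 and highest in replicate 4. The lipid synthesis genes Fasn (26.2, 25.5, 11.4 and 48.1 FPKM) and Scd1 (64.2, 59.2, 23.4 and 103 FPKM), which were looked at after the values were seen, followed the same order at its ends. The part of fat around or in the kidney in these values was not tested.

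Cyp24a1 (91.1%), Bcl6 (18.9, 10.7, 3.55 and 3.04 FPKM, a transcriptional repressor) and Ly6e (74.9, 19.1, 45.8 and 18.2 FPKM) were highest in replicate 1 and lowest in replicate 4. Vwa1, an extracellular matrix protein, had 3.87, 15.5, 29.8 and 16.0 FPKM. A further 5 of the 12 shared over 10% of their words with other annotated genes. Of 11151 nuclear protein-coding genes with at least 1 FPKM, 1639 shared more than 10% and up to 50%. Another 185 shared more than 50% and up to 90%, and 24 more than 90%. The 5 of the 12 were Gm8186 (CV 78.3%, 100% of words shared), mt-Nd4l (CV 68.4%, 98.8% shared), Rpl30 (CV 72.3%, 28.7% shared), Gapdh (CV 63.7%, 25.1% shared) and Vwa1 (CV 64.9%, 23.3% shared). The part of reads with several matches in these values was not tested. The last of the 12, Gm17662, is an entry of 24 bases with 0.127 CPM.

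Gapdh, the glycolytic enzyme often used as a reference, had 9.01, 2.98, 11.5 and 3.19 FPKM, a mean of 6.67 ± 4.26 FPKM. In its most affected transcript, 94.6% of the 50-base words occurred in another annotated gene. Among 14 reference genes, 8 had no transcript with 50% or more of its words shared, and their median was 66.4 FPKM, with Tbp lowest at 1.38 FPKM. Of the 3 with 80% or more, Ppia had 111 ± 5.65 FPKM while Gapdh and Rpl13a (5.51 ± 0.854 FPKM) were under 10 FPKM. Of 24 ribosomal protein genes with 80% or more shared in the most affected transcript, 3 were under 10 FPKM. Their median was 68.0 FPKM and their median CV 11.6%, against a median CV of 12.4% for the 21 with under 50% shared. Sdha, with 0% shared, had 216, 226, 225 and 218 FPKM and a CV of 2.10%. The bins that follow count the words of the whole gene, by which Gapdh had 25.1% shared. They cannot be set beside the classes above, which go by the most affected transcript. Over all nuclear protein-coding genes with at least 1 FPKM, the median CV was 9.84% for 4399 genes with no shared word, 9.15% for 4904 genes with up to 10% of words shared, 10.6% for 1639 genes with more than 10% and up to 50%, 14.8% for 185 genes with more than 50% and up to 90% of words shared, and 28.1% for 24 genes with more than 90%. The median levels of these bins were 8.12, 6.34, 7.73, 4.53 and 4.27 FPKM. Genes of any biotype between 1 and 5 FPKM had a median CV of 13.6%. The parts of level and of shared words in the spread were not tested.

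At the other end, the smallest CV values were those of Atp6v0c (37.7, 37.5, 37.5 and 37.4 FPKM, a proton pump subunit), Slc51b (24.0, 24.0, 24.1 and 24.1 FPKM), Hoxa9 (12.8, 12.8, 12.8 and 12.9 FPKM), Gatc, Srp68, Hoxb4, Uqcrc2 (151 ± 1.02 FPKM) and Gtf2h1. Their CV values of 0.259% to 0.796% were below the CV of 1.23% to 5.84% that counting error alone would give at their depth. They stand at the end of a ranking of 6863 genes and were not shown to vary less than other genes.

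Lists of states and of neighbouring tissues gave the following. Red blood cell genes summed to 433.4, 444.0, 366.1 and 708.3 FPKM, and Hbb-bs (190, 205, 165 and 317 FPKM), Hba-a1, Hbb-bt, Hba-a2 and the heme enzyme Alas2 were all highest in replicate 4. Of 13 circadian clock genes, 9 were highest in replicate 1, among them Dbp (69.9, 44.7, 34.9 and 50.2 FPKM), Per3 (8.35, 4.11, 4.60 and 6.08 FPKM) and Cry2 (6.46, 3.23, 2.98 and 3.88 FPKM). Over the 11161 nuclear protein-coding genes compared above, replicate 1 was highest for 2731 and replicate 4 for 1877. Arntl, which peaks in the opposite phase, had 0.251, 0.613, 0.735 and 0.354 FPKM, lowest in replicate 1 and highest in replicate 3, as was Npas2. Clock was also highest in replicate 3, and Per1 (10.1, 8.54, 10.1 and 10.5 FPKM) was highest in replicate 4. The times of day at which kidneys were taken are not given in the sources used here.

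Injury genes were low for Havcr1 (4.65 ± 0.625 FPKM), Lcn2 (0.493 ± 0.103 FPKM) and Krt20 (0.194 FPKM), while Spp1 (232 ± 17.3 FPKM) and Clu (61.5 ± 5.76 FPKM), which healthy tubules also make, were high. Of 7 proliferation genes only Ccnb2 averaged 1 FPKM or more (1.03 ± 0.362 FPKM), and Mki67 had 0.518 ± 0.157 FPKM. Immediate-early genes reached 11.5 ± 1.23 FPKM for Jun and 0.514 ± 0.223 FPKM for Fos. Interferon-stimulated genes ran up to 8.29 ± 0.984 FPKM for Ifit3.

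Of neighbouring tissues, the steroid enzymes Cyp11a1 and Cyp21a1 of the adrenal cortex and Ckm of skeletal muscle had no read in any library, and the pancreas genes Ctrb1 and Cpa1 had at most 3 reads in any library. Other members of these lists were read, with Cela1 of the pancreas list at 25.7 FPKM (4129 reads in all), Star of the adrenal list at 1.24 FPKM (351 reads), Mylpf of the muscle list at 0.761 FPKM (57 reads) and Acta1 at 0.0452 FPKM (5 reads). The list for the urothelium, which lines the renal pelvis, summed to 21.6 ± 1.76 FPKM with Psca (9.40 ± 2.09 FPKM) and Upk1a (3.88 ± 0.468 FPKM) on top. Alb of the liver had 1.67 ± 0.411 FPKM.

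Chromosome Y genes were read in all 4 libraries, with 3004, 2483, 2563 and 3003 reads, and Xist, the RNA of the inactive X chromosome, had 3, 1, 4 and 0 reads. Eif2s3y averaged 10.7 ± 2.77 FPKM, Gm47283 10.3 ± 3.86 FPKM, Ddx3y 10.2 ± 1.12 FPKM, Gm29650 3.12 ± 0.635 FPKM, Uty 2.63 ± 0.298 FPKM and Kdm5d 1.58 ± 0.244 FPKM. Of genes known to be higher in male mouse kidney, Cyp4b1, Slc7a13, Acsm3 (209 ± 7.08 FPKM) and Slco1a1 (165 ± 23.9 FPKM) were all above 100 FPKM. Of those known to be higher in females, Cyp4a14 had 5.16 ± 2.19 FPKM, Abcc3 0.535 FPKM and Slc7a12 0.336 FPKM.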

How the data were processed

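Kidney RNA of 4 WT libraries was analysed. Per the submitters' processing notes, HISAT2 2.0.4 (alignment) and HTSeq 0.9.1 (counting) were used. No source used here names the build. All 26878 listed genes with an identifier in GENCODE M21 (GRCm38) overlapped its position, 97.2% with the same start and end, so coordinates are printed as deposited. The deposited counts are whole reads per gene. The FPKM values deposited by the authors equal the counts divided by gene length and by 1 scaled size per library. A signal column deposited by the authors holds counts divided by a size factor and was used only to check that scaling. Columns with the authors' group means, fold changes and p-values were not used. In 23 entries a symbol had become a date and was recovered by identifier.

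Shares are of counted reads, with Wilson 95% intervals that cover counting error only, since reads carry no molecular identifiers. CPM and CV use TMM-scaled sizes (edgeR 4.0.16, R 4.3.3), and the common biological CV comes from an intercept-only edgeR fit after filterByExpr. DESeq2 1.42.0 was an alternative. With 1 group, no test between groups was made. Shared sequence was measured as 50-base words of GENCODE transcripts, on both strands. The dispersion, shared-word and alignment steps were tested on simulated data. Other steps used Python 3.11.15.

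Named genes were the 6 markers, the 20 non-mitochondrial genes of highest mean FPKM and the mitochondrial protein-coding genes, the 5 of highest mean CPM, members of the marker lists for segments, sodium entry, aquaporins and hormones, up to 4 members of each other list, among protein-coding genes with at least 5 FPKM, the 12 of largest and 8 of smallest CV, the 3 highest of each noncoding biotype with at least 10 genes at 1 FPKM, the 10 highest solute carriers, chromosome Y genes above 1 FPKM, and Xist. A few genes under this rule are not reported here. Other genes in the text were chosen after their values were seen. In all, 36 lists held 229 genes, of which 224 matched. The members and lists were chosen with earlier results of these data known.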

Additional observations from a re-analysis of the deposited data

Results flagged for a closer look

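In 13 of 294 values examined (4.42%), 1 library lay far from the other 3, where chance gives about 1 group in 20. Replicate 2 was the distant library in 10 of them and replicate 1 in 3. The part of gene length, of RNA quality or of biology in these values was not tested.

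In replicate 2, the summed thin limb list was high at 121 FPKM (103 to 106 FPKM in the others). Cryab carried this excess at 80.4 FPKM (60.8 to 63.3 FPKM), and the median member of the list differed by -0.06 on the log2 scale. Also high were Fth1 at 5438 FPKM (4498 to 4557 FPKM) and Rplp0 at 379 FPKM (318 to 324 FPKM). Cdkn1c was also high there at 12.5 FPKM (7.28 to 7.99 FPKM), with Gm4956 at 8.37 FPKM (5.82 to 6.09 FPKM) and Rpl13a at 6.77 FPKM (4.98 to 5.27 FPKM). The same library was low for the summed distal convoluted tubule list at 167.1 FPKM (199.7 to 206.4 FPKM), for the summed Y-linked list at 19.6 FPKM (26.4 to 27.3 FPKM) and for Casr at 4.47 FPKM (9.60 to 10.6 FPKM).

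Replicate 1 was high for Slc6a19 at 132 FPKM (78.7 to 85.3 FPKM in the others) and Ace at 95.7 FPKM (80.02 to 82.6 FPKM), and low for the chromosome Y gene Gm47283 at 4.49 FPKM (12.03 to 12.4 FPKM).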

How the results depend on the processing

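As a share of summed FPKM in place of reads, mitochondrial genes took 17.3% and protein-coding genes 94.2%. The 10 most abundant genes held 8.49% with mitochondrial genes left out, and 27.2% of summed FPKM when ranked by FPKM. The median CV ranged from 7.39% to 10.98% with 1 library left out (lowest without replicate 2) and was 22.7% with no filter on low values. On log scales the spread was a median SD of 0.13 for log2(FPKM + 1) and 0.15 for log2(FPKM + 0.1), which are other units. The biological CV ranged from 10.3% to 13.8% with 1 library left out, and the median gene-wise value by DESeq2 was 8.56%. The ratio of proximal tubule to thick ascending limb was 6.78 for median members, 13.3 without the most abundant member of each list and 8.02 in CPM. The number of genes at 1 FPKM or more was 11807 when every library had to reach it and 15424 in TPM, both within 1.5 times the reported count. The causes were not tested. No paired analysis was possible because there is 1 group. With 4 libraries, and levels under 0.156 to 0.203 CPM resting on fewer than 3 reads, low genes are the least certain.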
